A study of Homo sapiens with 4 samples.

Results

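The intervals called at MYC and SOX2 in c-MYC chromatin immunoprecipitation with sequencing (ChIP-seq) of UACC-812 breast cancer cells are described here. They were taken as every listed interval whose deposited nearest gene was MYC or SOX2, which gave 9 of the 391 intervals in the 4 lists: 2 in the C-MYC ChIP list, 2 in the C-MYC input list, 3 in the flag ChIP list and 2 in the flag input list. MYC held 8 of them, a pair in each list, and SOX2 held 1, in the flag ChIP list. The genes were chosen from these same lists, so their values are given as a description, with no test.

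Per the labels, the C-MYC libraries come from a UACC-812 derivative that overexpresses C-MYC, called the C-MYC line here, and the flag libraries from another UACC-812 derivative, the flag line. The labels do not say what the flag line carries, which vector or promoter drives the overexpression, or whether either line is a clone. A c-MYC antibody is named for both ChIP libraries. An RNA polymerase II antibody is named for both libraries titled input, against their titles, which were followed here. Each group is 1 library, so no difference has a replicate check and every comparison is between libraries, not conditions.

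MYC encodes a basic helix-loop-helix leucine zipper transcription factor that binds E-box motifs as a partner of MAX and is known for driving growth and proliferation in breast cancer and other tumours. Its main coding sequence is split by an intron and leaves the first exon largely untranslated. SOX2 encodes an HMG-box transcription factor that maintains pluripotent and neural stem cells. SOX2 is a gene of a single exon inside the transcribed span of the long non-coding RNA SOX2-OT, and SOX2 and MYC belong to the set of factors used to reprogram somatic cells.

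The SOX2 interval started downstream of the promoter, so the 250 bases before the gene start are shown to place it (RefSeq, GRCh38.p14, chr3:181711675-181711924, plus strand). The capitals mark the only match to the general E-box CANNTG, searched as a palindrome that reads alike on both strands.
SOX2 promoter: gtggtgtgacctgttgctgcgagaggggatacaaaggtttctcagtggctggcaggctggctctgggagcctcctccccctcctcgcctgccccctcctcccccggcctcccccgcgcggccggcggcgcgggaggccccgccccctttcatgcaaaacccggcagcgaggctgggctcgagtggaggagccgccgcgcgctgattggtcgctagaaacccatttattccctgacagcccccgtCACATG
This CACATG begins 6 bp before the gene start and 560 bp before the interval. The c-MYC E-box CACGTG, a special case of CANNTG, has no match in this window. Of 35116 RefSeq promoter windows of the same length, 6.34% hold CACGTG and 61.8% hold CANNTG. These letters describe the window only, and the interval began 554 bp past its end.

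The depth behind the values was read from the lists themselves. The caller's background at a summit is the deposited pileup plus 1, divided by the deposited fold, minus 1. A Poisson tail at that background gave every deposited -log10 p to within 0.000416. In 362 of the 391 intervals the background equalled a whole number of tags, the read ends kept by the caller, in the 10 kb around the summit, to within 0.00768 of a tag. The other 29, in 3 of the lists, stood at 1 value per list that no interval of the list went below, read here as the library's genome mean, the other background the caller can use. The deposited fold is therefore taken over the surroundings in the same library, not over input. This fixed the fragment length at 298 bp in the C-MYC ChIP and 286 bp in the C-MYC input library, and at 255 and 283 bp in the flag ChIP and flag input libraries. The genome mean was 53.55 tags per 10 kb in the C-MYC input, 16.8 in the flag ChIP library and 24.36 in the flag input. In the C-MYC ChIP list no interval stood at that mean, and the lowest window, of 13 tags, is an upper bound for it.

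At MYC, each list held 2 intervals inside the gene, called blocks below, and no other in it, in ChIP and input alike. Absence from a list does not show that the rest of the gene held no signal. The blocks were among 24 of the 205 regions formed by joining overlapping intervals (11.7%) that were listed in all 4 libraries. MYC lies on chromosome 8 from 127735434 to 127741434 in the deposited annotation and to 127742951 in RefSeq (GRCh38). In the C-MYC ChIP list the first interval ran from 2677 to 3720 bp after the gene start. In the C-MYC input it ran from 2779 to 3658 bp, in the flag ChIP list from 2701 to 3697 bp and in the flag input from 2683 to 3713 bp. The widest was that of the C-MYC ChIP list, and the narrowest, that of the C-MYC input, lay inside the others. In the C-MYC ChIP, flag input and flag ChIP lists the interval was 1044, 1031 and 997 bp long. That is the order of their fragment lengths, 298, 283 and 255 bp, so the widest is not read as a broader signal.

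The second interval behaved in the same way. It ran from 4828 to 5662 bp after the gene start in the C-MYC ChIP list, from 4860 to 5608 bp in the paired input, from 4854 to 5637 bp in the flag ChIP list and from 4835 to 5656 bp in the flag input. All 4 ended before the end of the gene, by 338 to 392 bp in the deposited annotation and by 1855 to 1909 bp in RefSeq. The stretch common to the lists was 880 bp for the first interval (127738213 to 127739092) and 749 bp for the second (127740294 to 127741042), which are the intervals of the C-MYC input.

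Summits of the first interval lay 3171, 3290, 3248 and 3155 bp after the gene start in the C-MYC ChIP, C-MYC input, flag ChIP and flag input lists. Those of the second lay at 5245, 5228, 5219 and 5245 bp. Interval centres varied less than summits at the first block. Over the 4 lists the centre moved by 20 bp and the summit by 135 bp at the first interval, and by 11 and 26 bp at the second. Summits lay near the middle of their intervals, at 45.8 to 58.1% of the length. Outside the C-MYC input the pileups stood at or near the ceiling described below. Summit positions there are therefore not read as the place of the strongest signal. The unlisted gap between the blocks was 1107 bp in the ChIP list and 1201 bp in the input list of the C-MYC line, and 1156 and 1121 bp in those of the flag line. Together the blocks covered 21.7 to 25% of the RefSeq gene. The files annotate the first as the end of transcript ENST00000520751 and the second as the end of ENST00000259523. Exon and coding sequence positions of MYC were not used here, so the edges were not set against them.

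**Figure D1:**
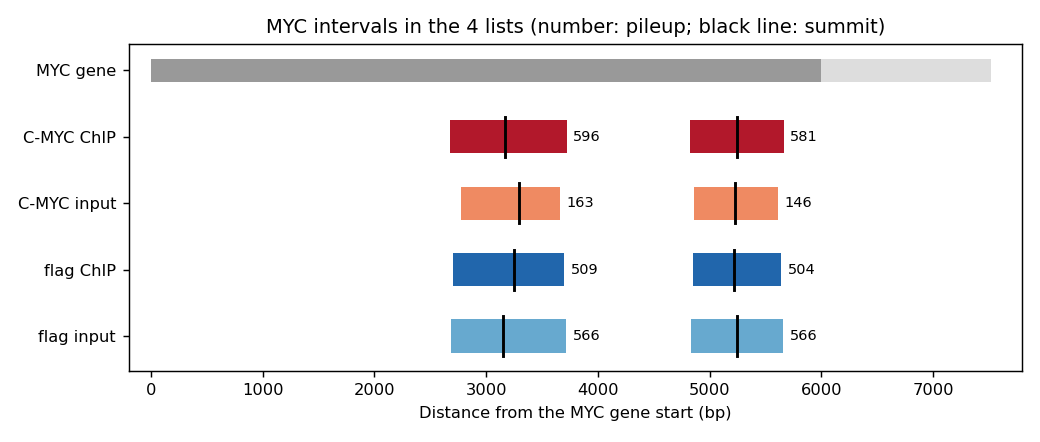
Position of the MYC intervals in each list, in bp from the gene start; bars are intervals, black lines are summits and numbers are deposited pileups. The dark grey bar is the gene in the deposited annotation and the light grey its extension in RefSeq. The blocks sit at the same 2 places in all 4 lists, and the C-MYC input has the narrowest bars and the lowest pileups.

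In 3 of the 4 libraries the height of these blocks was at or near 2 times the fragment length. A pileup of 2 times the fragment length is the highest that can arise when a caller keeps 1 tag per position and strand, which is the default of MACS2. No source used here states whether that setting was used, but 0 of the 391 intervals exceeded this height, called the ceiling below. In the C-MYC ChIP library, where the ceiling is 596, the MYC pileups were 596 and 581. In the flag ChIP library, where it is 510, they were 509 and 504. In the flag input, where it is 566, both were 566.

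The library labelled as the C-MYC input stood apart, with pileups of 163 and 146 against a ceiling of 572, or 28.5% and 25.5% of it. Elsewhere the MYC pair reached 97.5 to 100% of the ceiling. Of all 391 intervals, 6 (1.53%) reached at least 95% of it, and these were the MYC pairs of those 3 libraries. Outside MYC, the highest in both ChIP lists was the interval nearest RNU6-488P, a small nuclear RNA pseudogene, at 49.3% in the C-MYC list and 74.3% in the flag list. In the inputs it was the mitochondrial gene copy MTCO3P12, at 78.1% for C-MYC and 76.1% for flag. In the C-MYC input MTCO3P12 was above MYC, whose pair ranked 8 and 9 of 86 by pileup. In the 3 libraries at the ceiling, the order of the MYC pileups was that of the fragment lengths.

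**Figure D2:**
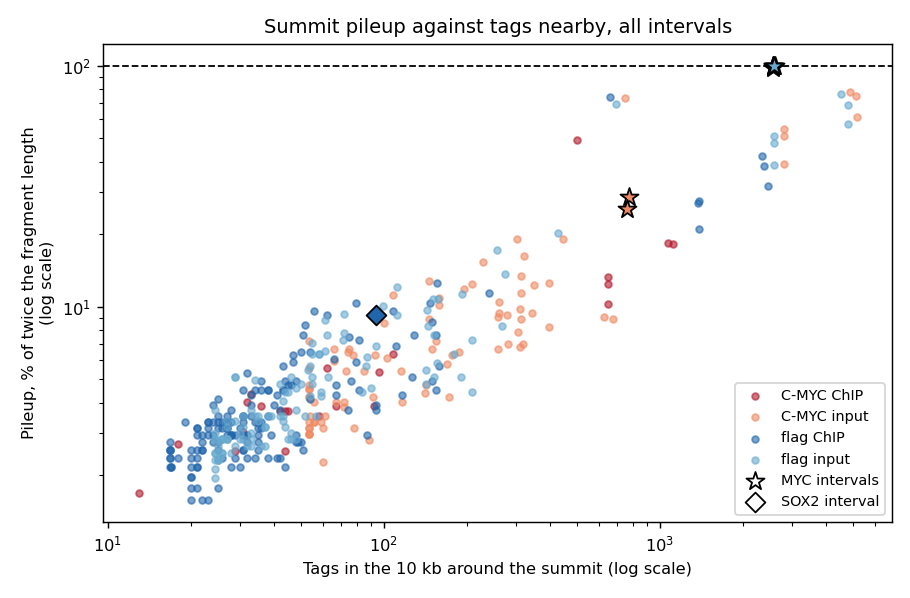
Pileup of each of the 391 intervals as a percentage of 2 times the fragment length of its library (log scale), against the tags in the 10 kb around its summit (log scale), with 1 point per interval. Stars are MYC and the diamond is SOX2; the dashed line is 100%. The MYC pairs of 3 libraries lie on the line and overlap each other at 2559 to 2604 tags, and the pair of the C-MYC input lies at 770 and 761 tags.

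The tags counted around MYC showed the same division. The 10 kb around the summits of the first and second interval held 2576 and 2570 tags in the C-MYC ChIP library. They held 770 and 761 in its input, 2563 and 2559 in the flag ChIP library and 2604 and 2597 in the flag input. Both flag libraries and the C-MYC ChIP library lay within 1.76% of each other. The genome mean of the flag input was 1.45 times that of the flag ChIP library. The MYC pileups of all these libraries stood at or near the ceiling, where the tag count may understate the reads. Their like tag counts therefore do not show like read numbers. The C-MYC input had fewer tags than any of these libraries, at the highest genome mean, 2.2 times that of the flag input. Thus the input labelled as coming from the line that overexpresses C-MYC held the fewest tags at MYC, and both libraries labelled flag held about as many as the C-MYC ChIP library. Tag counts of DNA do not measure RNA, and the cause of this difference was not tested. Whether each input belongs to the line on its label was not tested, and the ChIP over input values of the C-MYC line rest on that label.

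Set against the genome mean of each library, MYC was high in all 4. The window of the first interval held at least 198 times the genome mean in the C-MYC ChIP library, 14.4 times in its input, 153 times in the flag ChIP library and 107 times in the flag input. Where the pileup stood at the ceiling, the tag count may understate the reads, and by how much was not tested. ChIP over input on this scale was at least 13.8 for the C-MYC libraries. Of the 23 other intervals shared by those lists, the highest on the same scale was 2.78, also with the bound of 13 tags, so MYC lay above all of them. In the flag line, where ChIP and input both stood at or near the ceiling, the same ratio came to 1.43. There the tags were nearly equal (a ratio of 0.984), and 1.43 follows from the lower genome mean of the ChIP library, so it gives no direction of ChIP against input at MYC.

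A large part of the tags near MYC lay over the summits. Fragments over the 2 summits, which are at least 1938 bp apart and so share none, made up 45.7% of the window's tags in the C-MYC ChIP library. The shares were 40.1% in its input, 39.5% in the flag ChIP library and 43.5% in the flag input. The same tags raise the background that the fold is taken over. That background was a pileup of 76.8 at the first interval in the C-MYC ChIP library, 22.0 in its input, 65.4 in the flag ChIP library and 73.7 in the flag input, and the folds were 7.68, 7.12, 7.69 and 7.59. At the second interval the folds were 7.50, 6.46, 7.62 and 7.61 in the same order. The folds thus stayed close while the pileups differed several times over. Outside the C-MYC input the pileups stood at or near the ceiling, where tags may be undercounted. The like folds, the ranks by fold and the shares over the summits are therefore not read as a property of the gene. By fold, the MYC pair ranked 17 and 18 of 25 in the C-MYC ChIP list, and 122 and 123 of 161 in the flag ChIP list. By pileup it ranked 1 and 2 in both. The -log10 q, which grows with the number of tags, was 298 and 288 at the pair in the C-MYC ChIP list, 76.1 and 62.6 in its input, 257 and 253 in the flag ChIP list and 283 at both in the flag input.

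The 2 blocks were alike in height within each library. The pileup of the second over that of the first was 0.975 in the C-MYC ChIP library, 0.896 in its input, 0.990 in the flag ChIP library and 1.0 in the flag input. Only the ratio of the C-MYC input, the lowest of these, was taken well below the ceiling. Of 35 other pairs of neighbouring intervals within 5000 bp in a list, the lower over the higher pileup ran from 0.453 to 0.982 with a median of 0.781, and 11 were at least 0.896.

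Pileup ratios between libraries, with no scaling for depth, were set beside those of the other shared intervals. In the C-MYC line, ChIP over input was 3.66 at the first MYC interval and 3.98 at the second, against a median of 0.367 and a range of 0.211 to 0.815 at the 23 others. With the ChIP pileups at or near the ceiling, both MYC ratios may understate the difference. They also rest on the C-MYC input, whose pileups at MYC were 163 and 146, against 566 at both intervals in the flag input. They are therefore not read as ChIP enrichment at MYC. A higher pileup in ChIP than in input was found at 2 of 25 shared intervals (8%), and these were the MYC pair. The genome mean of this ChIP library was at most 0.243 times that of its input, so low ratios at the others do not show depletion. With tags scaled to the genome mean, ChIP over input at the 23 others had a median of at least 1.2, with a range of 0.867 to 2.78 on that bound. In the flag line the ratios were 0.899 and 0.890, and the ratio of the ceilings of those libraries was 0.901, so these values give no direction of ChIP against input. A higher pileup in ChIP was found at 20.4% of the 98 intervals those lists shared. Between the inputs, C-MYC line over flag line was 0.288 and 0.258 at MYC, the lowest of 51 shared intervals, with the flag input at the ceiling. The other 49 ran from 0.950 to 2.90, and 90.2% of the 51 were higher in the C-MYC input. Between the ChIP libraries, C-MYC line over flag line was 1.17 and 1.15 at MYC, against a ratio of ceilings of 1.17, so no direction can be read there either. Of the 25 shared intervals, 20% were higher in the C-MYC line. On the scale of the genome mean, C-MYC input over flag input was 0.134 and 0.133 at MYC, below all 49 others, which ran from 0.473 to 1.38.

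**Figure D3:**
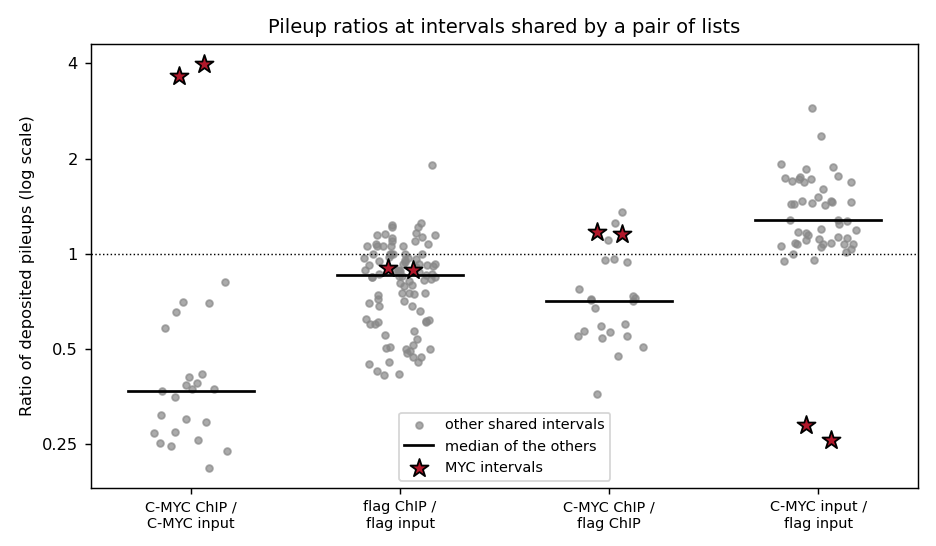
Ratio of deposited pileups, not scaled for depth (log scale), at intervals shared by a pair of lists. Grey points are other intervals, black bars their median and stars the MYC pair. MYC lies above all others for ChIP over input in the C-MYC line, at 3.66 and 3.98 with the ChIP library at or near the ceiling, and below all others for C-MYC input over flag input, at 0.288 and 0.258.

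SOX2 was listed in the flag ChIP library alone. Its interval ran on chromosome 3 from 181712479 to 181713015, 537 bp, with the summit at 181712709. The gene runs from 181711924 in the deposited annotation and from 181711925 in RefSeq to 181714436. The interval lay from 554 to 1090 bp after the RefSeq start, with the summit at 784 bp, and ended 1421 bp before the gene end. It covered 21.4% of the 2512 bp gene. The files place it in exon 1 of 1 of ENST00000325404, so it lay wholly in exon. SOX2-OT, from 181056680 to 181742228 on the same strand, spans it. Coding sequence positions of SOX2 were not used here.

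The SOX2 interval was far below MYC in height. Its pileup was 47, its fold 14.1 and its -log10 q 37.8, which ranked 16, 12 and 11 of 161 in the flag ChIP list. The pileup was 9.22% of the ceiling. The 10 kb around the summit held 94 tags, 5.59 times the genome mean, and 47 of them (50%) lay over the summit. At the first MYC interval in the same library, the pileup of 509 was 19.9% of the window's tags and the fold was 7.69. Those MYC values were taken at the ceiling, so the folds and shares of the 2 genes are set side by side and not compared.

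SOX2 was not listed in the flag input, and the other intervals of like height were. SOX2 was chosen with these lists known, so its place among them is a description and no support for a special role. In the flag ChIP list, 39.1% of intervals were not listed in the input and 31.7% were in no other list, and SOX2 is one of them. Those absent from the input were low, with a median pileup of 13 and a median of 29 tags. Of the 17 flag ChIP intervals with a pileup of at least 47, SOX2 was the 1 not in the input, and of the 62 with a pileup of at least 20, 8 were not (12.9%). Next to SOX2 in order of pileup, the interval nearest CDH11, a cadherin gene, had 47 in ChIP and 53 in input. The intervals nearest RAP2C and KCNE1B had 49 and 49 in ChIP and 50 and 52 in input. Those nearest MTCYBP35 and NME7 had 44 and 43 in ChIP and 77 and 43 in input. Among the 63 absent from the input, the second highest pileup was 26, nearest DUX4L16. The second highest fold was 11.6 and the second highest -log10 q 18.5.

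The flag input was the deeper library of the pair. A pileup of 47 in the flag ChIP library corresponds, at the genome mean of each other library, to 68.1 in the flag input, 150 in the C-MYC input and at most 36.4 in the C-MYC ChIP library. The lowest pileups listed in those libraries were 11, 13 and 10. The 11 in the flag input stood at the genome mean. Whether an interval is listed also depends on its local background, so these pileups are not thresholds for SOX2. With 1 interval in 1 library there is no replicate of the SOX2 signal, and absence from a list does not show that no tags were there.

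The interval differed a little in shape from its neighbours in height. It was 537 bp long, where those nearest RAP2C, KCNE1B, CDH11 and NME7 were 466 to 467 bp and that nearest MTCYBP35 was 862 bp. Beyond the fragments over the summit, the 10 kb window held 47 tags at SOX2, 7 at RAP2C, 15 at CDH11, 9 at NME7, 59 at KCNE1B and 106 at MTCYBP35. The list held 3 intervals annotated as exon (1.86%), of which SOX2 was the one in a protein coding gene. The others were at the mitochondrial pseudogene MTND5P11 and at AC109326.1.

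**Figure D4:**
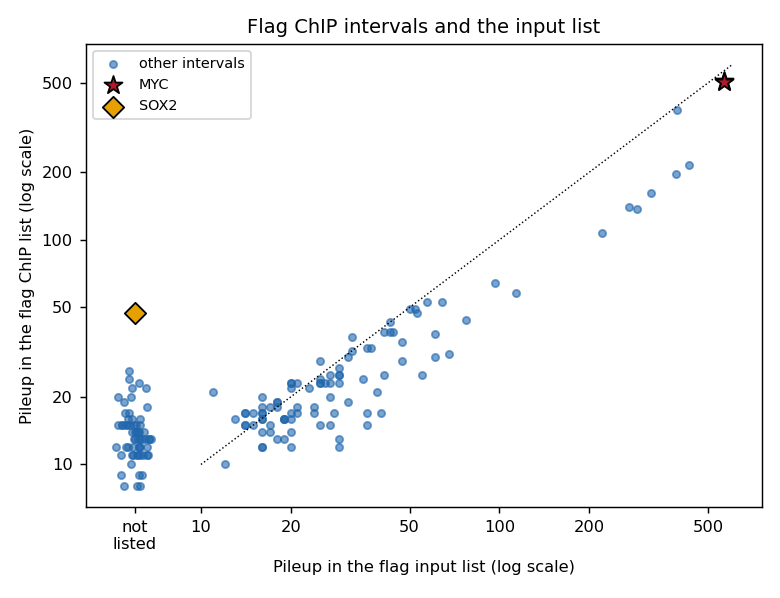
Pileup of the 161 flag ChIP intervals against the pileup of the overlapping flag input interval (both log scales), with intervals not listed in the input in a column at the left; the dotted line marks equal values. SOX2, at 47, stands above the other unlisted intervals, of which the highest is 26, and the MYC pair lies at the top right, near 566 in input and 509 and 504 in ChIP.

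Intervals near genes related to MYC and SOX2 were counted next. Of 59792 RefSeq genes, 0.425% had an interval within 10 kb in any list. The share was 0.0903% for the C-MYC ChIP list, 0.177% for the C-MYC input list, 0.388% for the flag ChIP list and 0.273% for the flag input list. Within 10 kb, 1 of 16 genes of the MYC network (MYC and its relatives, its partner MAX and their antagonists) had one, MYC itself. Of 12 reprogramming and pluripotency genes 2 did, MYC and SOX2, so POU5F1, KLF4, NANOG and LIN28A had none. Of 20 genes of the SOX family, 1 did, SOX2. MYC and SOX2 were chosen for having an interval, so nothing about these lists is read from the counts. The genes the study is about, TINCR, EGFR and ERBB2, had none.

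Around MYC the lists were empty over long stretches. Of 12 neighbours on chromosome 8, CASC11 lay within 10 kb of the MYC intervals in all 4 lists and CCAT1 within 10 kb of 2 intervals in the C-MYC input. Those 2, nearest CASC19 in the files, lay 516 and 514 kb before MYC, with pileups of 52 and 51, and their windows held 628 and 676 tags, 11.7 and 12.6 times the genome mean. MYC in that input held 14.4 times the mean. In the other lists no such interval was found: the C-MYC ChIP list had none on chromosome 8 besides MYC, and the nearest in both flag lists was 17.3 Mb away. Around SOX2, the nearest other interval was 6.83 Mb away in the flag ChIP list, and of 7 neighbours only SOX2-OT had an interval.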

How the data were processed

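The data are 4 peak lists from c-MYC ChIP and input libraries of 2 UACC-812 derivatives. Per the submitters' processing notes, the tools included MACS2 2.1.1 and Bowtie2 2.3.0, with cutadapt 1.19 and CASAVA 1.4, on GRCh38. Per the file headers, the deposited signal is the pileup at each summit, the deposited fold is a ratio over a background, the deposited -log10 values are the caller's p and q, and the deposited peak score was not used further. Fragment length and tags per 10 kb were recovered from pileup and fold. The length taken was the largest, at most the shortest interval, that gave the most whole tag numbers. The code was run on data simulated under the same model, with the longest length allowed set to the true one. That run could hardly fail, so it is no support for the recovered values. The recovery fits a background taken from the same library. Intervals were shared at an overlap of 1 bp. Gene spans and promoters came from RefSeq GRCh38.p14, where both genes matched by symbol; exon positions were not used here. Genes named are MYC, SOX2, members of the fixed gene lists and the intervals next in pileup to SOX2; others, such as RNU6-488P, MTCO3P12 and DUX4L16, were chosen after their values were seen. The members and lists were chosen with earlier results of these data known. Analysis used Python 3.11.15, pandas 2.3.3 and scipy 1.17.1.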

Additional observations from a re-analysis of the deposited data

Results flagged for a closer look

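The sign of the deposited pileup ratio at MYC differed between the 2 lines. The log2 ratio of ChIP over input, averaged over both intervals, was 1.93 for the C-MYC pair of libraries and -0.16 for the flag pair. With 1 library per group the difference was not tested. The C-MYC value rests on an input with MYC pileups of 163 and 146, against 566 at both intervals in the flag input. In the flag line ChIP and input both stood at or near 2 times the fragment length, the highest pileup possible with 1 tag per position and strand. The ratio of those heights is 0.901, against 0.899 and 0.890 at MYC, so the negative sign gives no direction of ChIP against input.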

How the results depend on the processing

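The number of MYC and SOX2 intervals in each list did not change when members were taken by overlap with the RefSeq gene span, or with a fold of at least 5 or a q of at most 0.01. All members lay inside their gene span, with a fold of at least 6.46 and a -log10 q of at least 37.8. None of these settings could therefore remove a member, so the unchanged number is no check of it. The share of flag ChIP intervals not found in input stayed between 39.1% and 42.9% over the 4 alternatives, and that of the C-MYC line was 0 except for 8% with a reciprocal overlap of 50%. ChIP over input at MYC relative to the other shared intervals was 9.95 and 10.8 in the C-MYC line (9.44 to 12.0 over the alternatives), with the ChIP pileups at or near the ceiling. The alternatives changed only the reference intervals, so this range says nothing of how stable the MYC ratios of 3.66 and 3.98 are. In the flag line the relative ratio was 1.05 and 1.04, and 1.42 and 1.4 with the regions in all 4 lists as reference. There the pileups at MYC were at or near the ceiling in both libraries, so these values move only with the reference intervals and say nothing of how stable the ratio at MYC is. With the median of the other regions in all 4 lists in place of the genome mean, a choice made after seeing the data, the tags at MYC were 48.1 times the reference in the C-MYC ChIP library, 3.52 in its input, 27.1 in the flag ChIP library and 19.7 in the flag input, so ChIP over input was 13.7 and 1.37, the latter again with both libraries at the ceiling. The planned placing of interval bases in exons and coding sequence was not run. No paired analysis was possible because the labels carry no replicate numbers and each group is 1 library. The genome mean compares between libraries only if the caller was given 1 genome size, which was not tested.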
